A study of Mus musculus with 15 samples.

Results

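The primary cilium and intraflagellar transport genes of the mouse liver were described here in 3 groups of tumor-bearing and tumor-free animals. The list named 38 genes, and its members were all probes of the array, control spots left out, that carry 1 of these names. Of the 38 names, 37 had at least 1 probe, 51 probes in all, out of 22032 gene symbols on the array. Controls (group C) were given saline and an empty plasmid. Tumor-bearing mice (group T) were given diethylnitrosamine (DEN, a liver carcinogen) with that same empty plasmid, and in group G DEN was combined with pcDNA3/CAG-HAGas1, a plasmid that drives HA-tagged Gas1 from the ubiquitous CAG promoter. All were CD1 males. According to the methods, DEN was injected at 25 µg per g body weight 15 days after birth, plasmids were given by hydrodynamic gene delivery (HGD, a rapid tail vein injection, 50 µg of DNA) from week 28 to week 34, and livers were taken at week 35. The labels give an age of 10 weeks instead. HGD reaches only a share of the liver cells, next to blood vessels, so group G livers hold transfected and untransfected cells together.

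A primary cilium is a single antenna-like extension of the cell surface built around microtubules. Cargo moves along it by intraflagellar transport (IFT): the IFT-B complex travels with kinesin-II to the tip, and the IFT-A complex travels back with dynein-2 and brings membrane receptors in. The BBSome carries receptors out, the transition zone gates the base, and hedgehog signalling, to which the Gas1 coreceptor belongs, runs through this organelle in vertebrates. In the liver the bile duct cells (cholangiocytes) bear primary cilia, whereas hepatocytes, the bulk of the tissue, lack them.

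Whole-liver RNA was hybridised to 15 single-colour arrays (C 4, T 5, G 6), and every group was represented on both slides. A shared RNA code linked arrays 3 and 4 of C, and another linked arrays 4 and 5 of T. The SD of the log2 differences within these pairs was 0.145 and 0.143, against 0.290 and 0.231 for the next closest pair of each group, so each pair was averaged and counted as 1 mouse, which left 3, 4 and 6 mice. Between 15707 and 29765 spots per array were well above background, and the lowest number in the series was that of array 2 of group C. All 10 hepatocyte markers were well above background on every array. Gas1 itself did not separate group G: its 3 probes gave 6.49 to 6.79 there (log2 signal, median 6.59), 6.41 to 6.61 in group T and 6.30 to 6.67 in group C, and G differed from T by 0.08 (adjusted p = 0.768, limma). Whether these probes lie inside the plasmid's insert was not determined.

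The signals below are log2 values after background correction and quantile normalization. A gene was called changed at an adjusted p under 0.05 in limma, fitted over all 3 groups and adjusted over all 22032 symbols. In bulk liver, fewer cells of a type and less RNA per cell cannot be told apart.

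Ift122, Ift52 and Ick were measured by 5 of the 51 probes. Ift122 belongs to IFT-A, Ift52 to the core of IFT-B, and Ick encodes a kinase that acts on transport at the tip of the cilium. Their probes are shown because every value of these genes rests on them. Each is 60 bases long, and the first 30 are printed, 5′ to 3′, as the scanner files give them. Both Ift122 probes lie on chromosome 6 of mm9, at chr6:115876636-115876695 and chr6:115876358-115876417. The Ick probes lie at chr9:78014734-78014793 and chr9:78012406-78012465, and the Ift52 probe at chr2:162871613-162871672. Which exon or untranslated region each covers was not determined here.
Ift122, A_51_P456857: atccgtcagaccattaccgtgcacacgttg
Ift122, A_55_P1990735: tgggaccacggctcccatggtctccttgct
Ick, A_51_P467668: agctctagtggactgactggaagctacatc
Ick, A_55_P2016782: agttccggcttgtctggaaaatcttcagga
Ift52, A_51_P486091: aaataaaattctgtgtttcctggctcatct

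Most members gave a weak signal in liver. Only 8 of the 37 were well above background on all 15 arrays: Ift52, Ift46 and Ift88 of the IFT-B core, Ift20 and Ift172 of peripheral IFT-B, the kinesin-II motor Kif3a, the hedgehog regulator Evc, and Bbs4 of the BBSome. A further 7 were well above background on no array: Wdr19 of IFT-A, Traf3ip1 of IFT-B, the dynein-2 light intermediate chain Dync2li1, the IFT-A adaptor Tulp3, Bbs2, the BBSome chaperonin Bbs12 and Rpgrip1l of the transition zone. Differences of these 7 are differences between values near background and are not read as folds. The remaining 22 passed on some arrays, and of these Ift57, Bbs1 and Tmem67 passed on no array of group C. On no array of group T passed Ift57, Ttc21b, Dync2h1 and Kif7. The missing name was Ift43. A probe under its older name 1700019E19Rik was well above background on all arrays and gave 6.76 ± 0.08 in C (SD, n = 3), 6.76 ± 0.10 in T (n = 4) and 6.74 ± 0.03 in G (n = 6), with no call (T against C adjusted p = 0.987, limma).

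**Figure D1:**
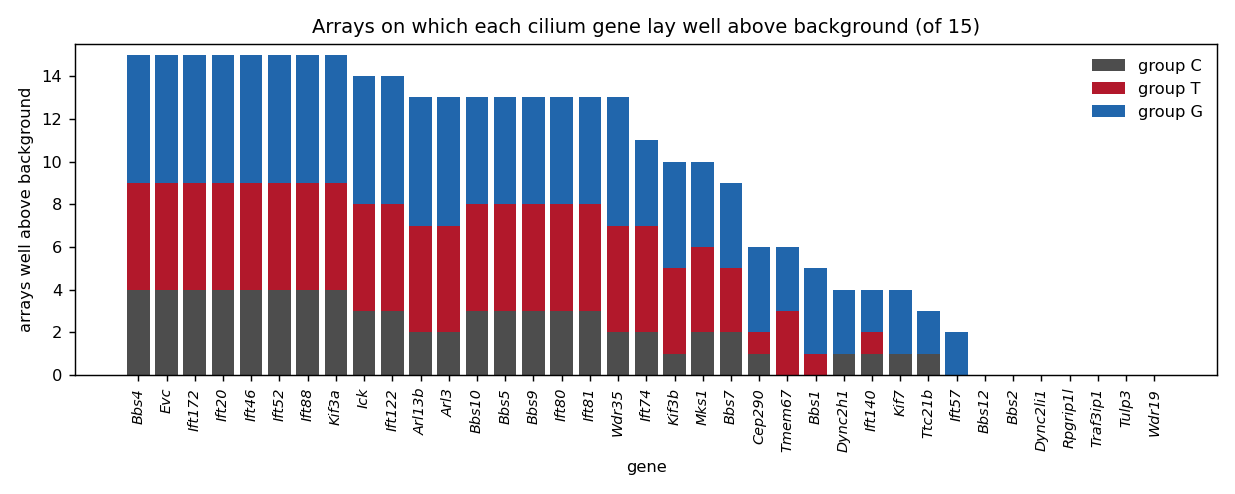
Number of arrays, of 15, on which at least 1 probe of each cilium gene lay well above background, stacked by group (vertical axis: arrays; horizontal axis: gene). The 8 genes on the left reach all 15 arrays and the 7 on the right reach none.

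The first question was whether the ciliary machinery differs between tumor-bearing livers and controls. Between groups T and C, 3 of the 37 members were called, all of them higher in T: Ift122 and Wdr35 of IFT-A, and Ick. That is 8.11% of the members, where 2.38% of all genes were called and 1.22% were called higher. Ift122 and Ick, like Ift52, belong to the genes that the study picked on these same arrays for their course over the 3 groups, so their part in this count is not independent evidence. For Ick the study also ran quantitative RT-PCR on livers of the 3 groups and reported a level restored after Gas1 transfection. That separate assay was not examined here. Of the other 34 members, Wdr35 alone was called. Over the whole list, 24 estimates were higher in T and 13 lower, the median difference was 0.06 on the log2 scale against 0.01 over all genes, and the range was -0.22 to 0.38. At an unadjusted p under 0.05 stood 13 members, 10 higher and 3 lower, which is 35.1% against 20.3% of all genes. In 11 members the T and C mice had no overlap (9 above, 2 below), 29.7% against 19.1% of all genes. One of these, Mks1, compared a single mouse with a single mouse. With the scanner software's own processed signal, scaled to the 75th percentile, the median of the members turned to -0.28, where that of all genes was -0.40.

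**Figure D2:**
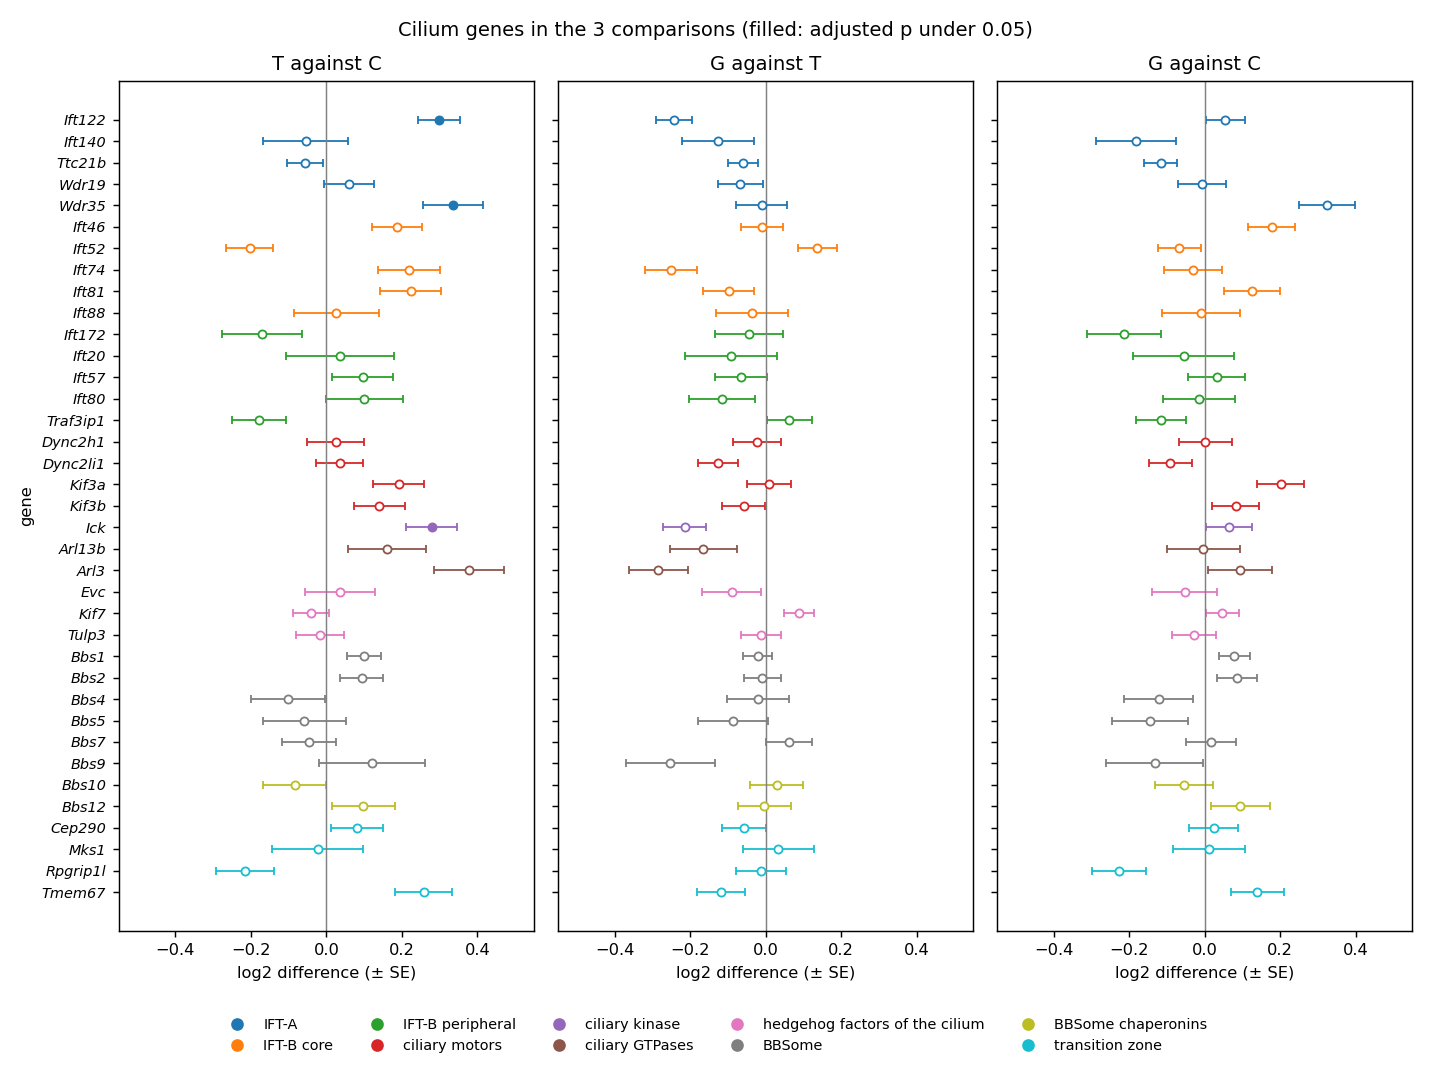
Log2 difference (horizontal axis, ± SE) of each of the 37 cilium genes in the 3 comparisons, coloured by class; filled points passed an adjusted p of 0.05. Ift122, Wdr35 and Ick are filled in T against C, and no point is filled in the other comparisons.

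Ift122 had the smallest adjusted p of all members. Its log2 signal in the 3 mice of group C was 6.47, 6.40 and 6.45, and in the 4 mice of group T it was 6.65, 6.85, 6.75 and 6.69. Every T mouse lay above every C mouse. The difference was 0.30 (standard error 0.06, adjusted p = 0.0231, limma), a 1.23-fold higher signal. Within slide 1 the arrays differed by 0.34, and within slide 2 by 0.23. The size differed between settings: it was 0.62 with the processed signal, which changes background handling and scaling together (adjusted p = 0.109, limma), 0.46 with a normexp offset of 16 and 0.45 with median scaling.

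Ick gave 6.49, 6.29 and 6.47 in group C, and 6.66, 6.65, 6.74 and 6.72 in group T. The groups did not overlap, and mouse 2 of group C was lowest. Ick differed by 0.28 (standard error 0.07, adjusted p = 0.0495, limma), or 1.21-fold, with 0.36 within slide 1 and 0.18 within slide 2. This adjusted p sits at the threshold, and Ick lost its call in 11 of 16 alternative settings and whenever any of the 7 mice compared was left out. With the processed signal its difference was 0.77, and with an offset of 16 it was 0.44.

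Wdr35, another IFT-A subunit, was measured by a single probe at chr12:9035023-9035082. It gave 6.11, 6.01 and 6.34 in group C against 6.43, 6.52, 6.45 and 6.56 in group T. The highest C mouse lay just below the lowest T mouse. That C mouse was measured on 2 arrays of the same RNA, which gave 6.17 and 6.51, apart by as much as the groups. Wdr35 differed by 0.33 (standard error 0.08, adjusted p = 0.0495, limma) and lost its call in 10 of 16 settings. The processed signal gave 1.14 (adjusted p = 0.0673, limma). No fold is given, because the probe was not well above background in mice 1 and 2 of group C. Within slide 1 its arrays differed by 0.42, within slide 2 by 0.18. The other IFT-A members stayed closer to 0: Wdr19 and Ift140, which complete the core of the complex, differed by 0.06 and -0.06, and the subunit Ttc21b by -0.06.

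These calls rest on few control mice, and the controls differed in signal strength. Arrays 1 and 2 of group C, from mice 1 and 2, had 18354 and 15707 spots well above background, fewer than any array of group T (19970 to 22638). Ift122 and Ick were below the mark on array 2 of group C, and Wdr35 on arrays 1 and 2. Without mouse 1 or mouse 2 of group C no member was called in T against C, and none without mouse 3 of group T. Without mouse 2 or mouse 4 of group T only Ift122 was called. Without mouse 3 of group C the calls were Arl3, Ift122 and Wdr35, and without mouse 1 of group T they were Arl3, Ift122 and Ift46. The part of signal strength in these differences was not tested.

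**Figure D3:**
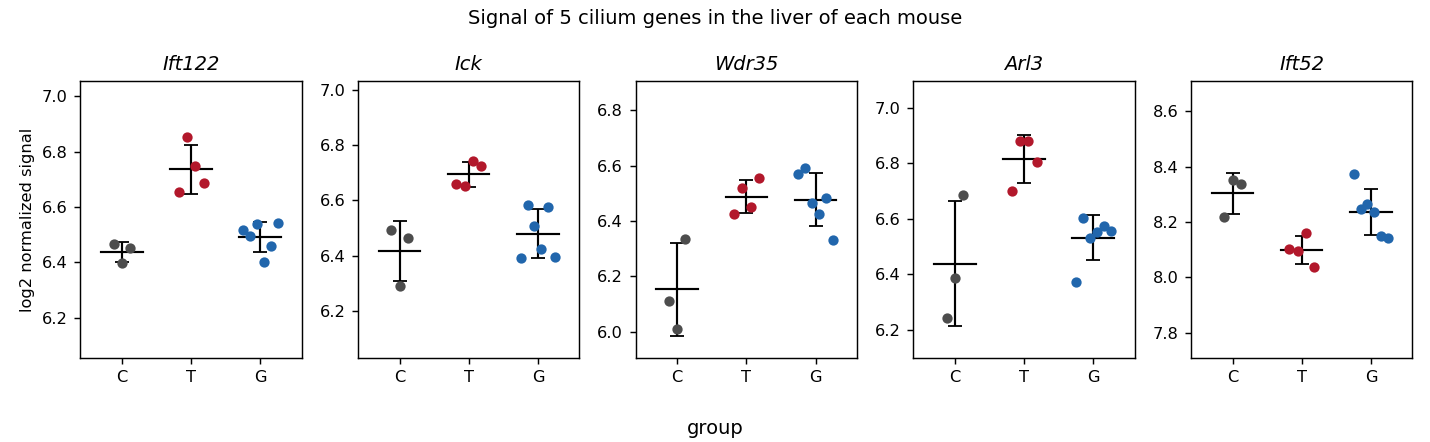
Log2 normalized signal (vertical axis) of 5 cilium genes in each mouse of groups C, T and G (horizontal axis); points are mice and bars the mean ± SD. In Ift122, Ick, Wdr35 and Arl3 every T mouse lies above every C mouse, whereas in Ift52 every T mouse lies below.

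Arl3, a small GTPase that releases lipid-anchored cargo inside the cilium, had the largest difference of all members between T and C. Its signal was 6.24, 6.39 and 6.69 in group C and 6.70, 6.88, 6.88 and 6.81 in group T. The C mice spread widely, and mouse 3 almost reached group T. Arl3 differed by 0.38 (standard error 0.09, 95% interval 0.18 to 0.58), which missed the threshold (adjusted p = 0.0513, limma). It was not well above background on arrays 1 and 2 of group C, and the processed signal gave 0.94. Within slides 1 and 2 its arrays differed by 0.36 and 0.29. Arl13b, the GTPase that marks the ciliary membrane, gave 6.52 ± 0.20 in C (SD, n = 3) and 6.68 ± 0.15 in T (n = 4), with overlap.

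Within the IFT-B core, Ift52 and its partners did not run the same way. Ift52 gave 8.22, 8.35 and 8.34 in group C and 8.10, 8.09, 8.16 and 8.04 in group T. All T mice lay below all C mice. The difference was -0.20 (standard error 0.06, 95% interval -0.34 to -0.07), which was no call (adjusted p = 0.0921, limma), and median scaling turned it to 0.53 (adjusted p = 0.159, limma). Within slide 1 its arrays differed by -0.29 and within slide 2 by -0.17. By contrast Ift74, Ift81 and Ift46 had higher estimates, 0.22 (adjusted p = 0.162), 0.22 (adjusted p = 0.15) and 0.19 (adjusted p = 0.148, limma), and Ift88 stood at 0.03. Ift74 and Ift81, which together bind tubulin, did not overlap between T and C. Under median scaling all genes moved by 0.12 at the median, Ift52 joined the others, and 8 members were called, Ift52 not among them.

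Peripheral IFT-B showed no call. Ift172 and Traf3ip1 had lower estimates in T (-0.17 and -0.18) and Ift20, Ift57 and Ift80 higher ones (0.04 to 0.10). Ift20, the member that also sits at the Golgi, was 9.78 ± 0.20 in C (SD, n = 3), 9.81 ± 0.31 in T (n = 4) and 9.72 ± 0.11 in G (n = 6). These ranges overlapped throughout.

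The 4 motor subunits all had higher estimates in T, from 0.02 in the dynein-2 heavy chain Dync2h1 to 0.19 in Kif3a, and none was called. Their probes differed: those of Kif3a gave 0.31 and 0.08, and those of Kif3b 0.29 and -0.01. Dync2h1 was well above background on no T array, and Dync2li1 on no array. Kif3a lay at 6.64 ± 0.09 in C (SD, n = 3), 6.83 ± 0.10 in T (n = 4) and 6.84 ± 0.08 in G (n = 6) (T against C adjusted p = 0.146, limma). The hedgehog factors Evc, Kif7 and Tulp3 stayed between -0.04 and 0.04, and Evc gave 6.50 ± 0.13, 6.53 ± 0.13 and 6.44 ± 0.12 (SD) in groups C, T and G. This Evc average mixes probes that ran apart. They gave 0.29, 0.09 and -0.27 in T against C, and -0.49, -0.05 and 0.22 in G against T, without a call. The 6 BBSome subunits ran from -0.10 in Bbs4 to 0.12 in Bbs9, with 3 estimates on either side, and the chaperonins Bbs10 and Bbs12 at -0.08 and 0.10. In the transition zone Tmem67, which causes Meckel syndrome when mutated, gave 0.26 (adjusted p = 0.0863, limma), but it was well above background on no C array and on 3 of 5 T arrays. Rpgrip1l stood at -0.22 with no array above background, and Cep290, a large scaffold of the zone, at 0.08. Mks1 had values in 1 C, 1 T and 4 G mice because the other spots carried outlier flags.

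The second question was what the Gas1 plasmid changed in DEN-treated livers. Between groups G and T no member was called by limma, against 0.127% of all genes, and 7 had an unadjusted p under 0.05 (18.9%, against 10.9% of all genes). Of the 37 estimates, 30 were lower in G and 7 higher, with a median of -0.06 against -0.01 over all genes and a range of -0.28 to 0.14. The split was the other way with the processed signal, where 16 were lower and 21 higher. The mice did not overlap in 3 members (8.11%, against 3.13% of all genes): Ift122, Ick and Arl3, each below group T. T against C and G against T share the mice of group T, so opposite signs in both are partly built in.

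Ift122 in group G was 6.52, 6.50, 6.54, 6.40, 6.46 and 6.54, all under the lowest T mouse (6.65). Its difference from T was -0.24 (standard error 0.05, 95% interval -0.35 to -0.14, adjusted p = 0.0784, limma). Within slides 1 and 2 its arrays differed by -0.25 and -0.22. Without mouse 1 of group T it was called, at an adjusted p of 0.0413 (limma). Ick in group G was 6.39, 6.58, 6.51, 6.42, 6.58 and 6.40, all below group T, with an estimate of -0.21 (adjusted p = 0.157, limma) and -0.25 and -0.19 within the slides. Arl3 ran from 6.37 to 6.60 in group G with a median of 6.56, a difference of -0.28 from T (adjusted p = 0.173, limma).

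Of the 37 members, 30 had a lower estimate in G than in T, among them all 5 of IFT-A. Of these 5, Ift122 alone had an unadjusted p under 0.05 (limma). Wdr19, Ttc21b and Ift140 were well above background on only 0, 3 and 4 arrays. Beyond Ift122, Ick and Arl3 no member stood apart from T. Ift74 gave -0.25 (adjusted p = 0.18, limma) and Bbs9 -0.25 (adjusted p = 0.461, limma), and both overlapped with T. Ift52 went the other way: its G mice gave 8.37, 8.25, 8.27, 8.24, 8.15 and 8.14, partly within the range of group T. Its estimate was 0.14 (95% interval 0.02 to 0.25, adjusted p = 0.361, limma). Wdr35 stood close to group T: it ran from 6.33 to 6.59 in group G, with a median of 6.47, and stood at -0.01 from T (95% interval -0.16 to 0.14).

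Between groups G and C no member was called by limma either, against 0.427% of all genes, and 6 had an unadjusted p under 0.05 (16.2%, against 13.2%). The 4 members without overlap were 10.8%, against 5.86% of all genes. The median was -0.00, as over all genes, and 18 estimates were higher and 19 lower. Wdr35 had the largest difference, 0.32 (95% interval 0.16 to 0.49, adjusted p = 0.0857, limma), and it was called without mouse 3 of group C (adjusted p = 0.035, limma). Kif3a (0.20) and Ift46 (0.18) lay above all C mice in every G mouse, as did Bbs1 (0.08), while Ttc21b (-0.12) lay below. Ift172 gave -0.21. The adjusted p of Kif3a, Ift46 and Ift172 were 0.196, 0.239 and 0.374 (limma). Ift122, Ick and Ift52 differed from C by 0.05 (95% interval -0.06 to 0.17), 0.06 (-0.07 to 0.20) and -0.07 (-0.19 to 0.06).

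Whether Ift122, Ift52 and Ick followed the rest of the machinery was described by subtracting, in each mouse, the mean of the other 34 members, all centred on their own means. That mean of the rest was -0.02 ± 0.04 in C (SD, n = 3), 0.04 ± 0.03 in T (n = 4) and -0.02 ± 0.03 in G (n = 6). Relative to it, Ift122 stood at -0.10 ± 0.07, 0.14 ± 0.06 and -0.04 ± 0.07 (SD) in groups C, T and G, and Ick at -0.10 ± 0.13, 0.12 ± 0.06 and -0.03 ± 0.09. Both thus differed in the direction of the rest but further, by 0.24 and 0.22 more from C to T. The direction of the rest depends on the scaling. With the processed signal the median of the 37 members was -0.28 in T against C, while Ift122 and Ick gave 0.62 and 0.77. The rest also includes the 7 members well above background on no array. Ift52 stood at 0.11 ± 0.03, -0.15 ± 0.06 and 0.05 ± 0.08, against the direction of the rest, with a change of -0.26 from C to T. This opposite course of Ift52 depends on the scaling, since the change was 0.34 with median scaling and 0.13 with the processed signal. No p is given, because the genes were chosen with their course known.

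**Figure D4:**
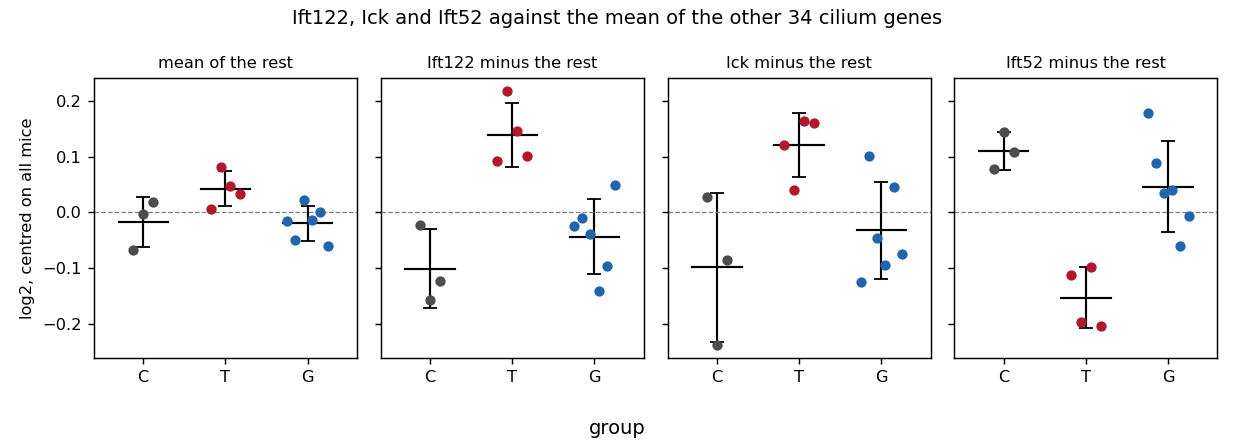
Mean of the other 34 cilium genes in each mouse (left panel), and Ift122, Ick and Ift52 minus that mean (log2, centred over all mice, vertical axis) by group (horizontal axis); points are mice and bars the mean ± SD. Ift122 and Ick lie highest in group T, and Ift52 lies lowest there.

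The members with the group means most like those of Ift122 were Ick, Arl3 and Ift74, by the root of the summed squared differences of 3 centred group means (0.02, 0.06 and 0.07 on the log2 scale). Those most like Ick were Ift122, Ift74 and Tmem67 (0.02 to 0.07). Nearest to Ift52 were Traf3ip1, Bbs10 and Bbs7 (0.05 to 0.11), of which Traf3ip1 was well above background on no array. This likeness covers 3 means only and is a description.

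Several members were measured by more than 1 probe. Fitted probe by probe, 2 of the 51 probes were called between T and C, against 1.23% of all 55681 probes (limma). None was called between G and T (0.0413% of all) or G and C (0.113%). The called probes were 1 of Ift122 (0.37, adjusted p = 0.0365, limma) and 1 of Ift46 (0.44, adjusted p = 0.0391, limma). The second Ift122 probe gave 0.23 and the Ick probes 0.28 and 0.30. The second Ift46 probe, above background on 2 of 15 arrays, gave -0.07, so the gene average of Ift46 (0.19) mixes a bright and a dim probe. Of 13 members with several probes, 9 had the same sign in all probes for T against C and 7 for G against T.

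Around the members, 89 further ciliary genes from lists of neighbouring pathways were measured. The genes called between T and C were all higher in T and included Dnaic1 and Tctn3. Between G and T only Dnaic1 was called, and it was lower: 1 of the 89, where 0.127% of all genes were called. Between G and C none was called. There 12 of the 89 had an unadjusted p under 0.05 (limma), where 13.2% of all genes had. The medians of the 89 were 0.02, -0.02 and -0.00. Dnaic1, a dynein intermediate chain of motile cilia, gave 6.43, 6.89 and 7.03 in group C, and 10.60, 10.08, 11.05 and 11.05 in group T, and 7.79, 7.52, 7.11, 8.35, 7.04 and 7.66 in group G. Every T mouse stood above all others, and every G mouse above all C mice. Its difference of 3.91 (standard error 0.31, adjusted p = 0.000259, limma) was 15.1-fold, and from T to G it fell by 3.11 (adjusted p = 0.000563, limma). The study had picked Dnaic1 on these arrays too. The other 15 genes of motile cilia had no call in any comparison, with a list median of -0.03 for T against C.

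Tctn3, of the transition zone, was called between T and C at 0.27 (adjusted p = 0.0298, limma), but it was well above background on no array. No call in T against C fell on the 6 RFX factors or the 13 ciliary receptors and hedgehog core genes. None fell on the 15 other trafficking genes or the 13 other IFT and motor genes either. In this order, 0, 2, 1 and 2 of them had an unadjusted p under 0.05 (limma), where 20.3% of all genes had. Smo, the hedgehog transducer of the ciliary membrane, stood at -0.22 (adjusted p = 0.18), and Arl6, the GTPase that recruits the BBSome, at 0.29 (adjusted p = 0.052, limma).

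The ciliated cells of the liver are those of the bile ducts. Averaged over 10 cholangiocyte markers, group C mice lay at 6.72 to 6.76 (log2), group T at 6.58 to 6.64 and group G at 6.61 to 6.80. Group T lay wholly below C. Of these markers Slc4a2 alone was called, lower in T (-0.48, adjusted p = 0.0114, limma). The list median was -0.12 and the highest estimate was 0.16, in Spp1, with Pkhd1 at 0.04 and Sctr at 0.02. Sctr was well above background on no C array, and Krt7, Epcam and Cftr on no T array. The hepatocyte markers ran at 14.41 to 14.54, 13.81 to 14.37 and 14.25 to 14.57 in C, T and G, and of the 10 only Ttr and Fabp1 were called between T and C, both lower in T. The others ran both ways: the list median was -0.34 and the highest estimate was 0.54, in Apoa1 (adjusted p = 0.0686, limma), with Hnf4a at 0.38 and Tat at 0.24. Of the 10 leukocyte markers Emr1 alone was called (0.31, higher in T), while the list median was -0.02 and the estimates ran from -0.63 in Cd74 to 0.58 in S100a8. Of the stellate, endothelial, pancreatic and cycling cell markers none was called in T against C by limma. Over all genes 2.38% were called. At an unadjusted p under 0.05 (limma) stood 2 of 10, 1 of 8, 1 of 8 and 1 of 10 of these 4 lists. The counts were higher in the hepatocyte (7 of 10), cholangiocyte (4 of 10) and leukocyte markers (3 of 10). Of all genes 20.3% stood there. The part of these cell types in the members' differences was not tested.

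The promoters of the members were searched for the X-box, the binding site of RFX factors, because these factors control many ciliary genes. Windows from RefSeq on GRCm38.p6, 250 bases before to 50 after each start, matched 33 of the 38 members. The X-box, searched by its consensus on both strands with 0 to 3 bases between its arms, was found in 2 members, Ift57 and Bbs1, and in 1.75% of 27025 genes. The windows of Ick, Wdr35, Arl3 and Ift52 held no match, and for Ift122 there was no window. The matching stretches are printed 5′ to 3′ on the gene's strand with the matches in capitals. They lie at chr16:49699192-49699261 (plus strand) for Ift57 and at chr19:4906608-4906631 (minus strand) for Bbs1. Ift57 holds 3 matches at 2 sites, because the shorter site matches on both strands. Neither gene was called in any comparison: Ift57 differed by 0.10 in T against C and Bbs1 by 0.10 (adjusted p = 0.232, limma).
Ift57: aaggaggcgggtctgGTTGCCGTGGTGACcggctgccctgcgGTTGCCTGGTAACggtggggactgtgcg
Bbs1: agctgGTTGCCAAGGCGACgcctg

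The 3 genes differed in how far their T against C difference held across the ways of processing the arrays. Ift122 had estimates of 0.23 to 0.62 and was called in 11 of 16 alternatives. Ick had 0.20 to 0.77 and was called in 5 of 16. Ift52 was called in 1 of 16, with 15 arrays taken as separate mice, and was positive in 1 of 16, with median scaling. With median scaling the called members were Arl3, Ick, Ift122, Ift20, Ift46, Ift74, Kif3a and Wdr35, while 2818 of all genes were called higher and 14 lower in T. With the processed signal, with cyclic loess normalization, with the replicate block, with the methods' t-test or with only groups T and C in the fit, no member was called.

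**Figure D5:**
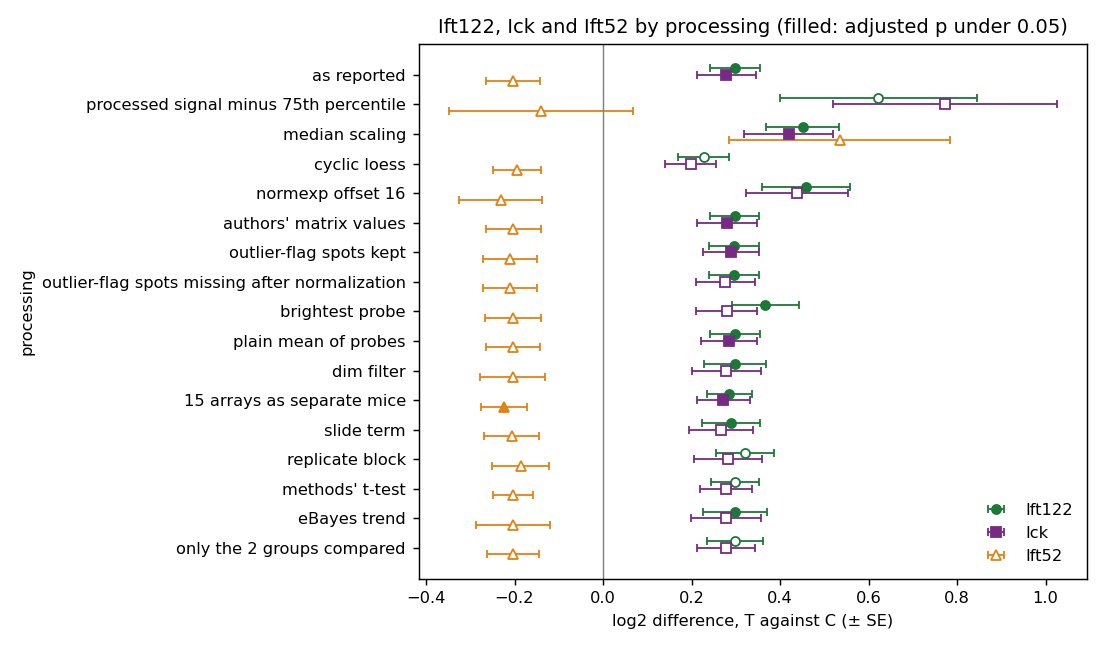
Log2 difference between groups T and C (horizontal axis, ± SE) of Ift122, Ick and Ift52 under each way of processing the arrays (vertical axis); filled points passed an adjusted p of 0.05. Ift122 and Ick lie above 0 in every setting, and Ift52 lies above 0 with median scaling only.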

How the data were processed

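RNA of whole mouse liver was hybridised by the authors to Agilent 60-mer arrays in a single colour (Cy3), and the deposited scanner files, written by Feature Extraction, hold mean and background intensity per spot with flags for outliers and for spots well above background. The authors' own table of normalized log2 values was used as an alternative. The labels name TRIzol and the methods a spin-column kit for the RNA. Groups came from the sample labels, and arrays sharing an RNA code were averaged, which left 13 mice. The other samples are taken as separate mice, and p-values measure the spread between these samples only.

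Intensities were background-corrected (normexp, offset 50), outlier-flagged spots were set missing, and values were quantile-normalized over 59305 spots after 3671 control spots were left out. Probes were centred and averaged per gene symbol, and groups were compared with limma 3.58.1 in R 4.3.3, all groups in the fit, with Benjamini-Hochberg adjustment over 22032 symbols. How few arrays there are sets the precision. In simulated data for T against C (20431 genes, independent normal noise), 50 genes were changed at each size. Of those changed by 0.3 on the log2 scale 24% were recovered, 74% at 0.5 and 92% at 1, and 12 unchanged genes were called. The adjustment depends on how many genes change, so these shares need not hold for the arrays. Named genes were Ift122, Ift52 and Ick, the called members and the 4 largest differences among members measured above background in each comparison, and called genes of the neighbouring lists, of which 1 is not reported here. The members and lists were chosen with earlier results of these data known. Alternatives covered background, scaling, flags, probe averaging, filtering, the test and leaving out each mouse.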

Additional observations from a re-analysis of the deposited data

Results flagged for a closer look

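Of 73 groups of mice that were large enough to examine, 2 held a sample far from the others, and chance alone marks about 1 in 20 groups. In group G, mouse 4 had the highest Tulp3 signal (6.02, the next 5.98), a gap of 0.675 of the group's range. In the same group, mouse 1 had the lowest Arl3 signal (6.37, the next 6.53), a gap of 0.674 of the range.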

How the results depend on the processing

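With the processed signal, 57, 3 and 1 genes were called between T and C, between G and T and between G and C (525, 28 and 94 as reported; the same order holds below), with 0 members and 0 of their probes in T against C. Ift122 and Ick gave 0.62 (adjusted p = 0.109) and 0.77 (adjusted p = 0.0917). Against the rest, T minus C and G minus T were 0.90 and -0.62 for Ift122, 0.13 and -0.0013 for Ift52, and 1.05 and -0.63 for Ick. Median scaling called 2832, 8 and 0 genes, 8 members and 8 probes. It put Ift52 at 0.53 in T against C, 0.61 in G against C and 0.34 against the rest, and Ift172 at 0.13 in G against C. Cyclic loess called 185 genes in T against C and 1 in G against C, 0 members and 0 probes, with Ift122 at 0.23 and Ick at 0.20 in T against C and at -0.010 and -0.014 in G against C. An offset of 16 called 1 probe, with Ick at 0.44, and against the rest Ift122 at 0.36 and -0.27 and Ick at 0.34. Outlier spots set missing after normalization, an alternative chosen after seeing the data, left 1 member, with Ick at 0.28 (adjusted p = 0.0511). The brightest probe and the filter on dim genes gave 43 and 64 genes in G against T, with Ick at 0.28 in both. With 15 arrays as separate mice, 1947, 263 and 342 genes were called, 8 members and 9 probes in T against C and 1 member in G against T, with Ift52 at -0.22 in T against C and Ift122 at -0.23 in G against T. A slide term called 799, 80 and 166 genes and 1 member, with Ick at 0.27.

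The replicate block called 268, 6 and 55 genes and 0 members, with Ift122 at 0.32 (adjusted p = 0.0602) and Ick at 0.28 (adjusted p = 0.103). Whether replicate numbers pair mice was not settled. Deviations of 10 same-number pairs correlated at -0.31 to 0.25 (median 0.08), those of 44 other pairs at -0.33 to 0.41 (median 0.007). Correlations over 0.1 were found in 4 of the 10 and 8 of the 44. The methods' test without shared variance called 0, 5 and 1 genes, 0 members and 0 probes, a variance trend 16 and 46 genes in the latter comparisons, 1 member and 0 probes, and fits of only the groups compared 11 and 47 genes, 0 members and 0 probes. In these Ift122 stayed at 0.30 and Ick at 0.28.

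With each mouse left out in turn, called genes ranged from 89 to 761, 5 to 127 and 0 to 182. Members called ranged from 0 to 3, 0 to 1 and 0 to 1, and their probes from 0 to 3, 0 to 0 and 0 to 1. Ift122 ran from 0.26 to 0.33 in T against C and from -0.27 to -0.20 in G against T, and Ick from 0.22 to 0.32 in T against C. Beside these, 259 of 336 values under other settings and 188 of 234 with a mouse left out were taken as unchanged. For a gene this meant the same direction and side of the threshold. A difference from the rest had to move by less than the spread. Counts of calls had to be equal to the reported count or within a set ratio of it. The cause of the changes was not tested. Signal near background limits most members.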
